A study of Mus musculus with 12 samples.

Results

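The deposited tables of average gene expression in splenic T cells listed 41 antioxidant and redox genes among 3684 genes in all. The genes were chosen by symbol, as members of the peroxiredoxin, thioredoxin, glutaredoxin, glutathione peroxidase, glutathione transferase, selenoprotein, methionine sulfoxide reductase, superoxide dismutase, haem oxygenase, glutamate-cysteine ligase and ferritin families, with Park7. Of the 41 genes, 37 were listed for CD4 cells (of 2999 genes) and 34 for CD8a cells (of 2851), with 30 in both, 7 in CD4 cells only and 4 in CD8a cells only. The choice used names and not measured values, but it was made with earlier results of these data known. Each comparison has its own deposited table of some of the genes, picked by the authors from these mice, so a listed gene was already more likely to differ.

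Spleens came from 12 mice, 3 in each of 4 groups: C57Bl6/J without stress, S100a9-/- C57Bl6/J without stress, C57Bl6/J after repeated social defeat stress, and S100a9-/- C57Bl6/J after the same stress. The stress paradigm lasted 10 days and was followed by 1 day of behaviour tests, with spleen cells taken on day 12 for 10x Genomics single-cell RNA sequencing. The labels call the C57Bl6/J mice wild type and do not say how the unstressed mice were kept, and all 4 groups went through red cell lysis before sequencing. Each value is the average expression of a gene over the CD4 or the CD8a cells of 1 mouse, on a scale read as transcripts per 10000. The sources used here do not say how cells were assigned to CD4 or CD8a, or how doublets were treated.

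The labels and the cell types were checked against their genes. S100a9 averaged 0.00449, 0.0167 and 0.0119 in CD4 cells of the 3 wild-type controls and 0.0493, 0.0418 and 0.0437 in the 3 labelled as knockout controls, so the labelled knockouts without stress were the higher ones. After stress it averaged 0.111, 0.0595 and 0.106 in wild-type mice and 0.0294, 0.023 and 0.0228 in those labelled as knockout. Which part of the gene this strain lacks is not stated in the labels, so these reads do not check the genotype, and "labelled knockout" is used throughout. In CD4 cells Cd4 was between 2.58 and 3.01 in the 6 mice without stress and between 1.66 and 2.47 in the 6 stressed mice. Cd8a was between 0.0526 and 0.269 there against 3.38 to 5.27 in CD8a cells. The sums over all listed genes were 7367 to 7562 in CD4 cells of the 6 mice without stress and 8120 to 8225 in the 6 stressed mice, and 7419 to 7615 against 8102 to 8270 in CD8a cells.

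As background, T cells make hydrogen peroxide and lipid peroxides when their mitochondria and NADPH oxidases are active, and low levels of these oxidants also take part in signalling from the antigen receptor. Peroxiredoxins and glutathione peroxidases reduce the peroxides, thioredoxins and glutaredoxins restore oxidised protein thiols, and NADPH supplies the electrons through thioredoxin reductase and glutathione. Ferritin stores iron in a form that does not drive radical chemistry. Selenoproteins carry selenocysteine, an amino acid with selenium in place of the sulfur of cysteine, which is inserted at a UGA codon that elsewhere ends translation.

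That codon sets a subset of the genes apart by sequence. Of the 41 genes, 9 have an annotated selenocysteine at an in-frame TGA in the GENCODE M21 annotation of GRCm38: Gpx1, Gpx4, Msrb1, Selenof, Selenoh, Selenok, Selenos, Selenow and Txnrd1. The codon is shown for the 4 of them that rose after stress in every comparison, with Gpx1 as a relative of Gpx4 that did not. Each run is coding sequence, 5′ to 3′, with up to 6 codons on either side and the selenocysteine TGA in capitals.
Selenow: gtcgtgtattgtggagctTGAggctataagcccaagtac
Selenoh: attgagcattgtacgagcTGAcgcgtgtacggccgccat
Selenok: cctccaatggctggtggaTGAggaaggtaa
Gpx4: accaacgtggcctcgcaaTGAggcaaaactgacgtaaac
Gpx1: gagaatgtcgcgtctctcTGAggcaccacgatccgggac
The codon lies at position 13 of 88 in Selenow, 38 of 123 in Selenoh, 129 of 253 in Gpx4 and 47 of 201 in Gpx1. In Selenok it is codon 92 of 94, so that the run ends at the true stop codon. Txnrd1 and Selenos also carry it next to the end, at codon 612 of 613 and 189 of 190.

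Repeated social defeat stress was followed by higher average expression of part of this antioxidant set in both T cell types, and 5 genes rose in all 4 comparisons of stressed with unstressed mice: Ftl1, Selenow, Selenok, Selenoh and Gpx4. The number of all listed genes that did so was not counted. All of these 5 but Ftl1, the ferritin light chain, are selenoproteins. Of the other selenoproteins in the set, Selenof rose in wild-type mice only. Gpx1, Msrb1 and Selenos were called in no stress comparison that listed them. Txnrd1 was listed for none, and it fell in CD4 cells when every gene listed for them was tested. In CD4 cells of wild-type mice 23 of the 34 listed redox genes rose and 1 fell, where 31% of the 2413 genes tested rose and 28.9% fell. In CD4 cells of labelled knockouts 6 of 30 rose and 0 fell (19.5% and 20% of 1898 genes). In CD8a cells of wild-type mice 13 of 27 rose and 0 fell (26.7% and 41.5% of 2108), and in those of labelled knockouts 9 of 31 rose and 0 fell (17.9% and 22.1% of 2023).

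The shares of redox genes that rose were thus 67.6% and 48.1% in wild-type CD4 and CD8a cells, against 31% and 26.7% of all genes tested. They were 20% and 29% in the labelled knockouts, where the CD4 share was near that of all genes. The median log2 change of the redox genes was 0.34, 0.19, 0.22 and 0.17 in wild-type CD4, labelled-knockout CD4, wild-type CD8a and labelled-knockout CD8a cells. The medians over all genes tested were 0.15, 0.13, 0.09 and 0.11. Counted by gene, 5 of the 41 were called in all 4 stress comparisons, 1 (Prdx2) in 3, 10 in 2, 9 in 1 and 16 in 0. How many of all listed genes were called in all 4 was not counted, so this spread has no background to be read against. Genes called most often are described by mouse below, and the separation of their groups follows in large part from that choice. The share of all genes without overlap after stress was not counted either. Log2 changes are of log2(value + 0.1), which understates the change of genes of low expression, and the threshold for a call was an adjusted p of 0.05 (limma, two-sided, Benjamini-Hochberg over all genes of that comparison, 3 mice against 3). Each redox gene was listed only where the authors had kept it for that comparison. Among all 37 redox genes listed anywhere for CD4 cells, tested together with all 2999 genes, 22 rose and 2 fell in wild-type mice (23.7% and 27.7% of all genes). In labelled knockouts 6 rose and 2 fell (11.3% and 28.1%). For CD8a cells 13 of 34 rose in wild-type mice and 10 of 34 in labelled knockouts, with 0 lower in either (18.6% and 35.4%, and 13.5% and 34.4%, of 2851 genes higher and lower).

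**Figure D1:**
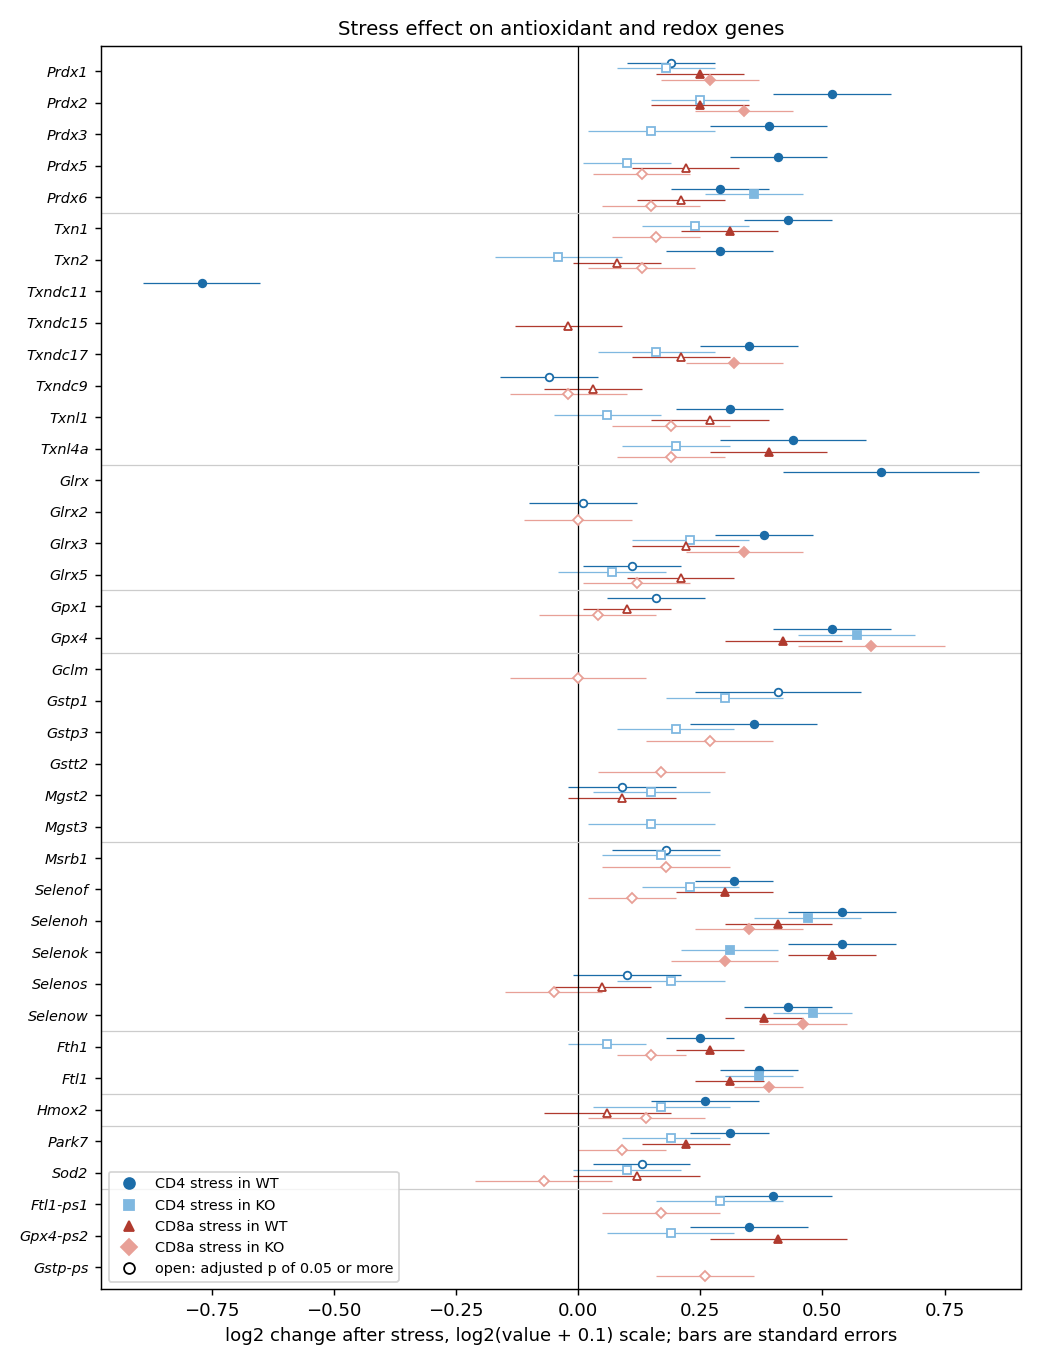
Log2 change after stress (x axis, log2(value + 0.1) scale) of each redox gene listed in a stress comparison (rows, grouped by role), with standard errors as bars; KO marks mice labelled as S100a9 knockout. Filled symbols have an adjusted p under 0.05. Gpx4 and the Selenow, Selenoh and Selenok rows have 4 filled symbols to the right of 0, and Txndc11 is the one filled symbol to the left.

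The size of these counts depended on the scale. Leaving out ribosomal and mitochondrial genes and scaling the rest of the 10000 to a common total moved the median of all genes from 0.15 to 0.25, from 0.13 to 0.23, from 0.09 to 0.23 and from 0.11 to 0.22 in the 4 comparisons in the same order. On that scale 20 of 30 redox genes rose in CD4 and 20 of 31 in CD8a cells of labelled knockouts, and 22 of 27 in wild-type CD8a cells. The share in labelled-knockout CD4 cells, near that of all genes on the deposited scale, was above it here. The split of all genes into higher and lower moved with it. In labelled-knockout CD4 cells it went from 370 and 380 of 1898 to 650 and 360 of 1770. Wild-type CD8a cells went from 563 and 875 of 2108 to 942 and 854 of 1978. Labelled-knockout CD8a cells went from 362 and 448 of 2023 to 640 and 422 of 1889, and wild-type CD4 cells from 748 and 698 of 2413 to 1081 and 685 of 2286. Centring each mouse on its median gave 25 redox genes higher in wild-type CD8a cells, beside 1142 genes higher and 854 lower in all. The 5 shared genes kept their direction on each of these scales. Both scales moved the median of all genes upward, so a called rise could hardly reverse, and the kept direction is no support. Single mice mattered as well: without the first labelled-knockout control 11 redox genes rose in labelled-knockout CD4 cells, beside 429 of all 1898 genes. In labelled-knockout CD8a cells 4 redox genes rose without the third control, beside 254 of all 2023 genes. Without the second control or the second stressed mouse 5 rose, beside 284 and 336 of all genes.

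Selenow encodes a small selenoprotein of muscle and immune cells with a thioredoxin-like fold (chr7:15917208-15922402, minus strand, mm10). In CD4 cells it averaged 3.02, 3.46 and 3.9 in the 3 wild-type controls and 4.79, 4.71 and 4.55 after stress. Labelled knockouts had 3.91, 3.36 and 3.37 without stress and 5.22, 4.68 and 5.03 after it. Every stressed mouse was above every unstressed one, with log2 changes of 0.43 ± 0.09 (SE; adjusted p = 0.00094) in wild-type and 0.48 ± 0.08 (adjusted p = 0.00016) in labelled-knockout mice. CD8a cells had 2.76, 2.81 and 3.1 in wild-type controls and 3.99, 3.83 and 3.52 after stress. In those of labelled knockouts it was 3.39, 2.7 and 2.78 and then 4.36, 4.02 and 3.88. Again the groups of each genotype did not overlap, and Selenow rose by 0.38 ± 0.08 (adjusted p = 0.00077) and 0.46 ± 0.09 (adjusted p = 0.00043).

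Selenok encodes a selenoprotein of the endoplasmic reticulum membrane that takes part in calcium flux in immune cells (chr14:29968308-29975662, plus strand). Wild-type CD4 cells had 1.42, 1.28 and 1.03 without stress and 1.95, 1.7 and 1.88 after it, and those of labelled knockouts had 1.69, 1.55 and 1.38 and then 2.05, 1.99 and 1.73. The stressed mice of each genotype lay above their controls, although the wild-type stressed mouse at 1.70 was close to the highest labelled-knockout control at 1.69. The log2 changes were 0.54 ± 0.11 (adjusted p = 0.00087) and 0.31 ± 0.10 (adjusted p = 0.022). In CD8a cells Selenok went from 1.05, 0.898 and 0.929 to 1.36, 1.36 and 1.53 in wild-type mice, a rise of 0.52 ± 0.09 (adjusted p = 0.00021). Labelled knockouts had 1.31, 1.11 and 1.1 without stress and 1.75, 1.43 and 1.25 after it. These last groups overlapped, since the third stressed mouse was below the first control, and the change of 0.30 ± 0.11 had an adjusted p of 0.049. That call and the one in labelled-knockout CD4 cells were lost when single mice were left out (adjusted p up to 0.22 and 0.1).

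Selenoh is a nuclear selenoprotein that binds DNA (chr2:84669215-84670770, minus strand). Its averages in CD4 cells were 0.492, 0.54 and 0.421 in wild-type controls against 0.758, 0.72 and 0.76 after stress, and 0.598, 0.55 and 0.568 against 0.898, 0.812 and 0.778 in labelled knockouts. All 6 stressed mice were above all 6 unstressed ones. The rises were 0.54 ± 0.11 (adjusted p = 0.00082) and 0.47 ± 0.11 (adjusted p = 0.0021). CD8a cells had 0.671, 0.569 and 0.519 and then 0.833, 0.756 and 0.837 in wild-type mice, and 0.724, 0.673 and 0.652 and then 0.831, 1.03 and 0.833 in labelled knockouts. The 6 stressed mice were again the 6 highest, with rises of 0.41 ± 0.11 (adjusted p = 0.004) and 0.35 ± 0.11 (adjusted p = 0.017). Leaving out single mice took the latter adjusted p up to 0.092.

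Gpx4 reduces peroxidised lipids within membranes and is the enzyme whose loss triggers ferroptosis, an iron-dependent cell death (chr10:80047166-80056439, plus strand). In CD4 cells wild-type controls had 0.814, 0.842 and 0.781 and stressed wild-type mice 1.5, 1.11 and 1.05. Labelled knockouts had 0.797, 0.561 and 0.666 without stress and 1.08, 1.09 and 0.959 after it. The first stressed wild-type mouse was the highest of the 12, and stressed and unstressed mice did not overlap. Gpx4 rose by 0.52 ± 0.12 (adjusted p = 0.0024) and 0.57 ± 0.12 (adjusted p = 0.0012). In CD8a cells the values were 0.678, 0.605 and 0.835 against 1.1, 0.973 and 0.865 in wild-type mice and 0.841, 0.484 and 0.653 against 1.1, 1.09 and 0.908 in labelled knockouts. Neither pair of groups overlapped, with rises of 0.42 ± 0.12 (adjusted p = 0.0068) and 0.60 ± 0.15 (adjusted p = 0.0033). A processed pseudogene, Gpx4-ps2, was counted separately at no more than 0.146 in any mouse, and reads may be split between the copies.

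**Figure D2:**
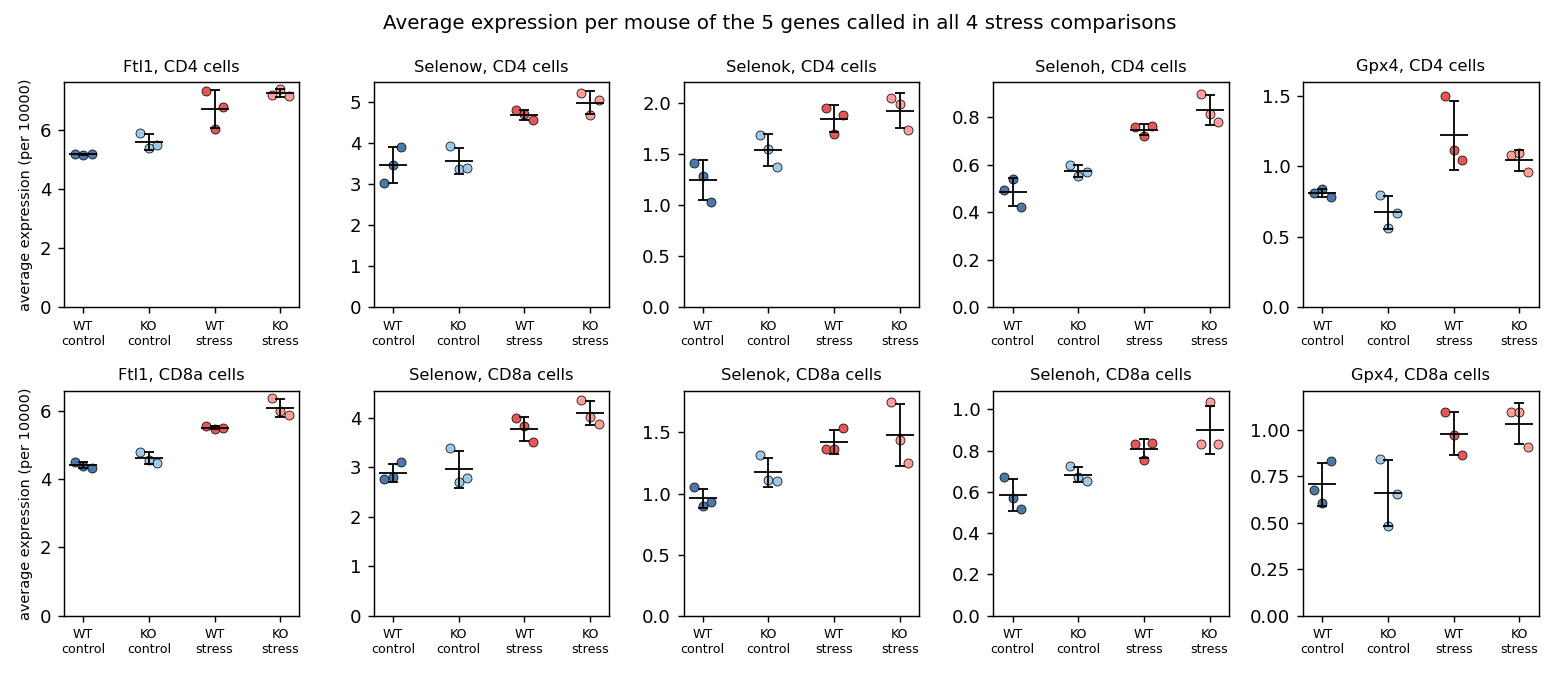
Average expression (y axis, per 10000) of the 5 genes that rose in all 4 stress comparisons, in CD4 cells (top) and CD8a cells (bottom), by group (x axis; KO marks mice labelled as knockout). Points are single mice, and bars show the mean and SD of 3 mice. In every panel but Selenok in CD8a cells of labelled knockouts, stressed mice lie above the controls of their genotype. The genes were picked by their calls in these mice, so the separation follows in large part from that choice.

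The other selenoproteins moved less evenly. Selenof, which sits in the endoplasmic reticulum and takes part in glycoprotein folding, had 1.22, 1.22 and 1.29 in CD4 cells of wild-type controls and 1.55, 1.52 and 1.67 after stress. Labelled knockouts had 1.51, 1.3 and 1.25 and then 1.72, 1.65 and 1.47, so that their groups overlapped at 1 mouse. It rose in wild-type CD4 cells (0.32 ± 0.08, adjusted p = 0.0046) and was not called in those of labelled knockouts (0.23 ± 0.10, adjusted p = 0.075). In CD8a cells the averages were 1.19, 1.12 and 0.976 against 1.46, 1.29 and 1.35 in wild-type mice, without overlap, and 1.29, 1.19 and 1.14 against 1.23, 1.43 and 1.27 in labelled knockouts, with overlap. The changes were 0.30 ± 0.10 (adjusted p = 0.014) and 0.11 ± 0.09 (adjusted p = 0.38). Selenos, a partner of protein export from the endoplasmic reticulum, and Msrb1, which repairs oxidised methionine, were called in none of the stress comparisons they were listed in.

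Gpx1, the cytosolic glutathione peroxidase, stood apart from Gpx4. In CD4 cells it averaged 1.58, 1.39 and 1.39 in wild-type controls, 1.5, 1.56 and 1.84 after stress, 2.16, 1.64 and 1.64 in labelled-knockout controls and 1.66, 1.64 and 1.5 after stress. The first labelled-knockout control was the highest of the 12 mice, and the stressed groups overlapped their controls. The change in wild-type CD4 cells was 0.16 ± 0.10 (adjusted p = 0.17), and the labelled-knockout comparison did not list it. CD8a cells of wild-type mice had 1.19, 1.23 and 1.17 and then 1.38, 1.16 and 1.35, a difference of 0.10 ± 0.09 (adjusted p = 0.32). Labelled knockouts had 1.33, 1.3 and 1.26 and then 1.72, 1.27 and 1.09. Their difference of 0.04 ± 0.12 (adjusted p = 0.84) rested on the first stressed mouse, and without it the value was -0.13.

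Ferritin is the iron store of the cell. The library method counts each transcript once at its 3′ end, so values were not divided by length, and the 2 subunits together made up 16.5 ± 0.2 of a total of 43.5 ± 0.557 over the 37 redox genes in CD4 cells of wild-type controls (means ± SD, n = 3). Ftl1, the light chain (chr7:45457944-45459884, minus strand), averaged 5.19, 5.18 and 5.19 in CD4 cells of wild-type controls and 7.34, 6.07 and 6.79 after stress. In labelled knockouts it was 5.92, 5.4 and 5.51 and then 7.21, 7.41 and 7.17. All 6 stressed mice were above all 6 unstressed ones, and Ftl1 rose by 0.37 ± 0.08 (adjusted p = 0.0011) and 0.37 ± 0.07 (adjusted p = 0.00032). CD8a cells went from 4.51, 4.39 and 4.32 to 5.54, 5.46 and 5.5 in wild-type mice and from 4.81, 4.55 and 4.47 to 6.37, 5.98 and 5.88 in labelled knockouts. The rises were 0.31 ± 0.07 (adjusted p = 0.00075) and 0.39 ± 0.07 (adjusted p = 0.00013), again with no overlap. A near copy, Ftl1-ps1, was counted separately at no more than 0.114 in any mouse.

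Fth1, the heavy chain, oxidises iron as it enters the shell. CD4 cells of wild-type controls had 11.5, 11.1 and 11.3 and those of stressed wild-type mice 13.1, 12.6 and 14.7. In labelled knockouts the averages were 14.5, 12.2 and 12.6 without stress and 14.4, 13.8 and 12.6 after it. Fth1 rose in the wild-type mice (0.25 ± 0.07, adjusted p = 0.0096), while the labelled-knockout groups overlapped, with a difference of 0.06 ± 0.08 (adjusted p = 0.60). CD8a cells showed 8.55, 8.07 and 7.98 and then 9.72, 9.65 and 10.3 in wild-type mice, and 9.58, 8.74 and 8.98 and then 11.4, 9.53 and 9.63 in labelled knockouts. The wild-type rise was 0.27 ± 0.07 (adjusted p = 0.0024). The labelled-knockout groups overlapped and differed by 0.15 ± 0.07 (adjusted p = 0.12). Between the genotypes, the stress effect differed by -0.19 ± 0.11 in CD4 and -0.11 ± 0.10 in CD8a cells (adjusted p = 0.55 and 0.81), so a difference was not shown.

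Among the peroxiredoxins, which reduce hydrogen peroxide with a cysteine, 4 of 5 rose in wild-type CD4 cells, 1 of 5 in labelled-knockout CD4 cells and 2 of 4 in CD8a cells of either genotype. Prdx2, the cytosolic form, had 0.707, 0.96 and 0.86 in CD4 cells of wild-type controls and 1.33, 1.07 and 1.34 after stress. Labelled knockouts had 1.13, 1.05 and 0.898 and then 1.19, 1.26 and 1.24. The groups did not overlap in either genotype, but the margin between the labelled-knockout groups was narrow. Prdx2 rose by 0.52 ± 0.12 (adjusted p = 0.0023) in wild-type mice, and the labelled-knockout difference of 0.25 ± 0.10 was not called (adjusted p = 0.067). CD8a cells had 0.653, 0.771 and 0.686 against 0.84, 0.836 and 0.888 in wild-type mice and 0.709, 0.654 and 0.676 against 0.937, 0.847 and 0.884 in labelled knockouts. All stressed mice were above all unstressed ones, with rises of 0.25 ± 0.10 (adjusted p = 0.034) and 0.34 ± 0.10 (adjusted p = 0.0091). Prdx2 is also one of the most abundant proteins of red cells, and haemoglobin sums are given with the markers. In CD8a cells these were 0.0342 to 0.85 in wild-type and 0.351 to 2.77 in labelled-knockout controls. After stress they were 0.228 to 0.688 in wild-type mice and 1.39 to 15.9 in labelled knockouts. Their part in the Prdx2 changes was not tested.

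Prdx1, a cytosolic form induced by oxidants, averaged 1.96, 1.74 and 2.21 in CD4 cells of wild-type controls, 2.14, 2.22 and 2.41 after stress, 2.44, 2.05 and 1.78 in labelled-knockout controls and 2.5, 2.35 and 2.24 after stress. Stressed and control mice overlapped in both genotypes, and the changes of 0.19 ± 0.09 and 0.18 ± 0.10 were not called (adjusted p = 0.096 and 0.20). In CD8a cells it had 1.64, 1.67 and 1.67 and then 2.19, 1.8 and 2.02 in wild-type mice, without overlap, and 1.89, 1.5 and 1.48 and then 2.13, 1.88 and 1.9 in labelled knockouts, where the first control was above 1 of the stressed mice. It rose by 0.25 ± 0.09 (adjusted p = 0.02) and 0.27 ± 0.10 (adjusted p = 0.038). Prdx6, which also acts on phospholipids, rose in CD4 cells of both genotypes (0.29 ± 0.10 and 0.36 ± 0.10, adjusted p = 0.02 and 0.0077). Of the forms found in mitochondria, Prdx3 (0.39 ± 0.12, adjusted p = 0.012) and Prdx5 (0.41 ± 0.10, adjusted p = 0.0026) rose in wild-type CD4 cells and were called in no other stress comparison that listed them.

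The thioredoxins and proteins named after them fell into genes that rose, genes that were not called and 1 that fell. Txn1, the cytosolic thioredoxin, had 1.42, 1.31 and 1.29 in CD4 cells of wild-type controls and 1.81, 1.72 and 2 after stress, without overlap. Labelled knockouts had 1.9, 1.52 and 1.37 and then 1.99, 1.8 and 1.87, where the first control was above 2 of the stressed mice. The changes were 0.43 ± 0.09 (adjusted p = 0.00083) and 0.24 ± 0.11 (adjusted p = 0.10). In CD8a cells the averages were 1.34, 1.26 and 1.09 against 1.61, 1.44 and 1.61 in wild-type mice and 1.51, 1.38 and 1.41 against 1.53, 1.55 and 1.78 in labelled knockouts. Neither pair overlapped, though the second was close, and the changes were 0.31 ± 0.10 (adjusted p = 0.01) and 0.16 ± 0.09 (adjusted p = 0.16). Txndc17, a cytosolic thioredoxin-like reductase, rose in wild-type CD4 cells (0.35 ± 0.10, adjusted p = 0.01) and labelled-knockout CD8a cells (0.32 ± 0.10, adjusted p = 0.017). Txnl4a, which despite its name is a spliceosome protein, rose in CD4 and CD8a cells of wild-type mice (0.44 ± 0.15 and 0.39 ± 0.12, adjusted p = 0.021 and 0.011). Txnl1, a thioredoxin bound to the proteasome, and Txn2, the mitochondrial thioredoxin, rose in wild-type CD4 cells (0.31 ± 0.11 and 0.29 ± 0.11, adjusted p = 0.022 and 0.034) and were not called in the other stress comparisons. Txndc9 and Txndc15 were called in none of their stress comparisons, with changes from -0.06 to 0.03.

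Txndc11, a thioredoxin-domain protein of the endoplasmic reticulum (chr16:11074911-11134650, minus strand), was the one redox gene that fell in its own comparison. CD4 cells of wild-type controls had 0.417, 0.435 and 0.373, and those of stressed wild-type mice had 0.171, 0.217 and 0.21. The groups were far apart, and Txndc11 fell by 0.77 on the log2 scale (SE 0.12, adjusted p = 0.00011). Labelled knockouts, for which the authors did not list the gene, had 0.389, 0.327 and 0.383 without stress and 0.119, 0.163 and 0.25 after it. They did not overlap either, and in the fit over all 2999 genes the change was -0.78 ± 0.17 (adjusted p = 0.0039). Its transcript, at 3095 bases, is longer than the median of 1494 over the 39 redox genes with an annotated coding transcript, and the median over all genes listed for CD4 cells was 1858. Among redox genes with longer transcripts, Glrx3 (3440) and Txnl4a (4078) rose in wild-type CD4 cells. Txndc9 (3381) and Sod2 (5861) were not called there, and Txnrd1 (3622) fell in the fit over all 2999 genes. A part of length was not tested. Txnrd1, the selenoprotein that reduces thioredoxin, was the other gene that fell in this wider fit, by 0.33 in wild-type (SE 0.12, adjusted p = 0.041) and by 0.51 in labelled-knockout CD4 cells (SE 0.12, adjusted p = 0.0071).

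Park7, or DJ-1, protects proteins and mitochondria from oxidation. CD4 cells had 2.44, 2.14 and 2.34 in wild-type controls against 3.05, 2.75 and 2.86 after stress, and 2.83, 2.21 and 2.19 against 2.89, 2.54 and 2.81 in labelled knockouts. It rose in the former without overlap (0.31 ± 0.08, adjusted p = 0.0043), while the latter overlapped at the first control (0.19 ± 0.10, adjusted p = 0.15). In CD8a cells it averaged 2.55, 2.15 and 2.14 and then 2.73, 2.56 and 2.69 in wild-type mice, where all stressed mice were just above the highest control (0.22 ± 0.09, adjusted p = 0.037). Labelled knockouts had 2.72, 2.34 and 2.18 and then 2.55, 2.79 and 2.37, with overlap (0.09 ± 0.09, adjusted p = 0.48). Sod2, the mitochondrial superoxide dismutase, was called in none of the 4 comparisons, with changes from -0.07 to 0.13.

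Of the glutaredoxins, which use glutathione, Glrx3 takes part in the handling of iron-sulfur clusters. Its CD4 averages were 0.629, 0.611 and 0.52 in wild-type controls and 0.803, 0.781 and 0.792 after stress, and 0.684, 0.7 and 0.546 and 0.867, 0.671 and 0.785 in labelled knockouts. Only the wild-type groups were separate, with a rise of 0.38 ± 0.10 (adjusted p = 0.0059) against 0.23 ± 0.12 (adjusted p = 0.15). CD8a cells had 0.66, 0.655 and 0.546 against 0.801, 0.724 and 0.689 in wild-type mice and 0.605, 0.573 and 0.495 against 0.814, 0.797 and 0.595 in labelled knockouts. Here the wild-type groups were separate but not called (0.22 ± 0.11, adjusted p = 0.08), and the labelled knockouts overlapped at the third stressed mouse and were called (0.34 ± 0.12, adjusted p = 0.043). Glrx2 and Glrx5, both mitochondrial, were not called, with changes from 0 to 0.21. Of the glutathione transferases, Gstp3 rose in wild-type CD4 cells (0.36 ± 0.13, adjusted p = 0.032). Gstp1, Gstp3 and the pseudogene Gstp-ps are near copies whose reads may be split. Mgst2, Mgst3, Gstt2 and Gclm, the regulatory subunit of the enzyme that starts glutathione synthesis, were not called after stress, with changes from 0 to 0.17. Hmox2, the constitutive haem oxygenase, rose in wild-type CD4 cells (0.26 ± 0.11, adjusted p = 0.047) and was not called elsewhere after stress.

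The promoters were searched for the core of the antioxidant response element, the site of the transcription factor Nrf2, as TGACNNNGC on either strand in 300 bases (250 before to 50 after each RefSeq start, GRCm38.p6). Of the 41 genes, 33 had a promoter in the RefSeq table, and 5 of these held the letters: Gclm, Prdx1, Txnrd1, Selenok and Txndc11. That is 15.2%, against 18.1% of the 2652 listed genes with a promoter, 14% of 27025 genes and 12.4% of the 32851 single promoters. Of the 5 genes that rose in all comparisons, Selenok alone held it. The promoters of Selenok and of Prdx1, a peroxiredoxin known as an Nrf2 target, are shown with the match in capitals.
Selenok, chr14:29968130-29968429, plus strand: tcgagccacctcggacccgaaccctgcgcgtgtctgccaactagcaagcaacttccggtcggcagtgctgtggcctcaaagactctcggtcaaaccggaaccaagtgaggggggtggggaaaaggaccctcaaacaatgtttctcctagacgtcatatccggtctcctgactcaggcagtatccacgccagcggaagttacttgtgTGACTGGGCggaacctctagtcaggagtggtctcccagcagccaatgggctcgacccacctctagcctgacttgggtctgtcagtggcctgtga
Prdx1, chr4:116685349-116685648, plus strand: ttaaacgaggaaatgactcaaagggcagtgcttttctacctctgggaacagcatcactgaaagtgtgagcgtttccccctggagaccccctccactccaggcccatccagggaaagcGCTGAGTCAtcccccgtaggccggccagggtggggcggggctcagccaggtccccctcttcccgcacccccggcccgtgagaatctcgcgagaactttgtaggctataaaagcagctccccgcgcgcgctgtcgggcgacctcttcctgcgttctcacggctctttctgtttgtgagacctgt
Relative to the RefSeq start, the match begins at position -44 in Selenok and at -133 in Prdx1, where it lies on the minus strand. It is a match of letters and shows no binding.

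Other genes of redox control were read from a list of 98, of which 26 were tested in wild-type CD4 cells, where 8 rose and 5 fell (31% and 28.9% of all genes tested). In labelled-knockout CD4 cells 1 of 19 rose and 2 fell (19.5% and 20%), in wild-type CD8a cells 5 of 17 rose and 2 fell (26.7% and 41.5%), and in labelled-knockout CD8a cells 4 of 18 rose and 2 fell (17.9% and 22.1%). The shares of the list that rose were thus near or below those of all genes, and the counts are no result about redox control. Cyba, a membrane subunit of NADPH oxidase, rose in all 4 (0.61 ± 0.11 and 0.32 ± 0.12 in wild-type and labelled-knockout CD4 cells, adjusted p = 0.00032 and 0.048; 0.44 ± 0.08 and 0.34 ± 0.09 in CD8a cells, adjusted p = 0.00039 and 0.0046). Sesn3, a stress-induced regulator of peroxide reduction and of mTORC1, fell in all 4, with changes from -0.83 to -0.68, and so did Pcbp2, an iron and RNA binding protein, with changes from -0.52 to -0.41. In wild-type CD4 cells Bach1 (-0.90 ± 0.13, adjusted p = 5.8e-05) and Bach2 (-0.75 ± 0.10, adjusted p = 4.2e-05), which repress genes with antioxidant response elements, fell. Secisbp2l, a relative of the factor that reads selenocysteine insertion elements, fell there too (-0.92 ± 0.11, adjusted p = 2.3e-05). Esd (0.62 ± 0.09, adjusted p = 8.1e-05), which releases glutathione from its formaldehyde adduct, and Atox1 (0.42 ± 0.10, adjusted p = 0.0027), a copper chaperone, rose there. So did Pgls (0.34 ± 0.09, adjusted p = 0.0073) and Taldo1 (0.33 ± 0.11, adjusted p = 0.021), enzymes of the pentose phosphate pathway, with Gfer, a sulfhydryl oxidase (0.43 ± 0.11, adjusted p = 0.0066), Mpst, a sulfurtransferase (0.36 ± 0.14, adjusted p = 0.042), and Hagh, which regenerates glutathione from its lactate ester (0.31 ± 0.11, adjusted p = 0.032).

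Markers of other cells moved with the same groups. In CD4 cells, the 4 listed of 9 erythroid markers, all haemoglobin genes, summed to 0.141, 0.0917 and 0.0891 in wild-type controls, 5.52, 4.06 and 0.627 in labelled-knockout controls, 0.732, 0.197 and 2.36 in stressed wild-type mice and 5.08, 1.74 and 1.7 in stressed labelled knockouts. The sum of 8 of 14 monocyte, macrophage and dendritic cell markers, with Hmox1 among them, ranged from 2.55 to 2.97, 3.41 to 5.6, 3.51 to 4.09 and 4.07 to 4.48 in the same order. For 4 of 10 neutrophil markers it was 0.0118 to 0.0304, 0.0796 to 0.28, 0.116 to 0.323 and 0.225 to 0.449, with Ngp at 0 in all wild-type controls. The sum of 7 of 10 natural killer cell markers, which include the granzymes of activated T cells, was 2.83 to 4.67 and 4.5 to 8.35 without stress and 9.36 to 28.8 and 14.4 to 40.9 after it. B cell and class II markers went the other way in labelled knockouts: the sum of 7 of 14 was 7.46 to 11.2 in their controls and 3.45 to 4.12 after stress, and all 7 fell. In wild-type mice that sum was 3.45 to 8.97 and 4.34 to 7.16, and none of the 7 was listed for the comparison. T cell markers moved too: 6 of 8 summed to 35.6 to 36.9, 35.8 to 42, 40.3 to 44.7 and 42 to 45. Of 5 tested in wild-type mice after stress, Cd3d (0.38 ± 0.07), Cd3g (0.39 ± 0.07) and Trbc2 (0.20 ± 0.06) rose and Cd4 (-0.64 ± 0.08) fell. In labelled knockouts 2 of 4 rose and 0 fell.

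In CD8a cells the haemoglobin sum was 15.9, 1.39 and 5.66 in stressed labelled knockouts, against 0.0342 to 2.77 in the other 3 groups. The sum of 3 of 10 natural killer cell markers was 13.6 to 19 and 17.2 to 22 in wild-type and labelled-knockout controls and 24.9 to 30.7 and 25.3 to 46.7 after stress. The sum of 9 of 14 B cell and class II markers was 7.11 to 13 and 10.6 to 14 without stress and 4.67 to 6.98 and 5.17 to 6.4 after it, and both tested genes fell in wild-type mice and all 9 in labelled knockouts. Sums of 4 macrophage markers (2.34 to 2.73, 2.77 to 3.94, 2.96 to 3.2 and 2.93 to 3.26, in the order used for CD4 cells) and of 5 neutrophil markers (0.00618 to 0.0474, 0.0768 to 0.248, 0.0981 to 0.265 and 0.228 to 0.302) were lowest in wild-type controls. Sums of 6 T cell markers were 49.1 to 52.4, 48.4 to 54.6, 51.1 to 52 and 48.3 to 52.8 in that order. After stress 2 of 5 tested T cell markers rose and 2 fell in wild-type mice, and 1 of 6 rose and 3 fell in labelled knockouts. The part of these markers in the redox results was not tested. In such averages a larger share of expressing cells cannot be told apart from more RNA per cell.

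The second question of the design was whether loss of S100a9 altered these genes. Without stress, 8 redox genes were listed for CD4 cells, and Glrx alone was called, higher in labelled knockouts, where 15.1% of the 496 genes tested were higher and 6.65% lower. Glrx, the cytosolic glutaredoxin (chr13:75839868-75850154, plus strand), averaged 0.18, 0.181 and 0.164 in wild-type and 0.69, 0.46 and 0.309 in labelled-knockout controls. The groups did not overlap, with the first labelled knockout the highest, and the difference was 1.04 ± 0.24 (adjusted p = 0.046). After stress Glrx was 0.536, 0.223 and 0.268 in wild-type mice, a rise of 0.62 ± 0.20 (adjusted p = 0.019) with no overlap in which the first mouse stood well above the others. Stressed labelled knockouts had 0.276, 0.245 and 0.377, within or below the range of their controls. The stress effect in labelled knockouts minus that in wild-type mice was -1.14 ± 0.34 (limma interaction, adjusted p = 0.39). The genotype call was lost when any 1 control was left out except the third labelled knockout, with an adjusted p of 0.077 to 0.13, and the number of redox genes called then ranged from 0 to 4. Over all 496 genes the number higher ranged from 1 to 204 in these fits, against 75 with all mice.

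Hmox1, the inducible haem-degrading enzyme, is abundant in the macrophages that clear red cells in the spleen. In CD4 cells it was 0.0196, 0.0521 and 0.0274 in wild-type controls and 0.157, 0.115 and 0.069 in labelled-knockout controls. Those groups did not overlap, and the difference of 0.67 ± 0.21 was just short of the threshold (adjusted p = 0.051). Stressed mice had 0.0172, 0.0204 and 0.0413 and 0.0102, 0.105 and 0.0339. Txnrd1 was 0.453, 0.461 and 0.357 in wild-type and 0.738, 0.56 and 0.575 in labelled-knockout controls, likewise separate and not called (0.47 ± 0.16, adjusted p = 0.067). Fth1 (0.20 ± 0.07, adjusted p = 0.068), Gpx1 (0.29 ± 0.13, adjusted p = 0.094) and Ftl1 (0.11 ± 0.06, adjusted p = 0.14) also had every labelled knockout above every wild-type control, but the ferritin differences changed sign when each mouse was centred on its median (-0.06 and -0.16). The share of all 496 genes without overlap was not counted, and 74.2% of the 496 had a positive difference. The remaining 2 of the 8 overlapped between the groups, Selenok at 0.29 ± 0.14 (adjusted p = 0.10) and Gpx4, the one with a negative difference, at -0.25 ± 0.15 (adjusted p = 0.16). Beside these, Slc40a1, the iron exporter of macrophages, was higher in labelled knockouts (0.58 ± 0.16, adjusted p = 0.047), as were all 4 haemoglobin genes, 3 of 7 tested macrophage markers and both tested markers of dividing cells, Mki67 (0.75 ± 0.20, adjusted p = 0.047) and Top2a (0.59 ± 0.18, adjusted p = 0.049). The part of these in the Glrx, Hmox1 and Txnrd1 differences was not tested. The first labelled-knockout control, the highest of the 12 mice in Glrx, Hmox1 and Txnrd1, was also the highest in the haemoglobin and macrophage sums. Hmox1 is itself part of the macrophage sum. The first stressed labelled knockout also had high sums, 5.08 and 4.48, but Glrx at 0.276, Hmox1 at 0.0102 and Txnrd1 at 0.429. Centring turned the split of all genes from 75 higher and 33 lower into 25 and 109.

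**Figure D3:**
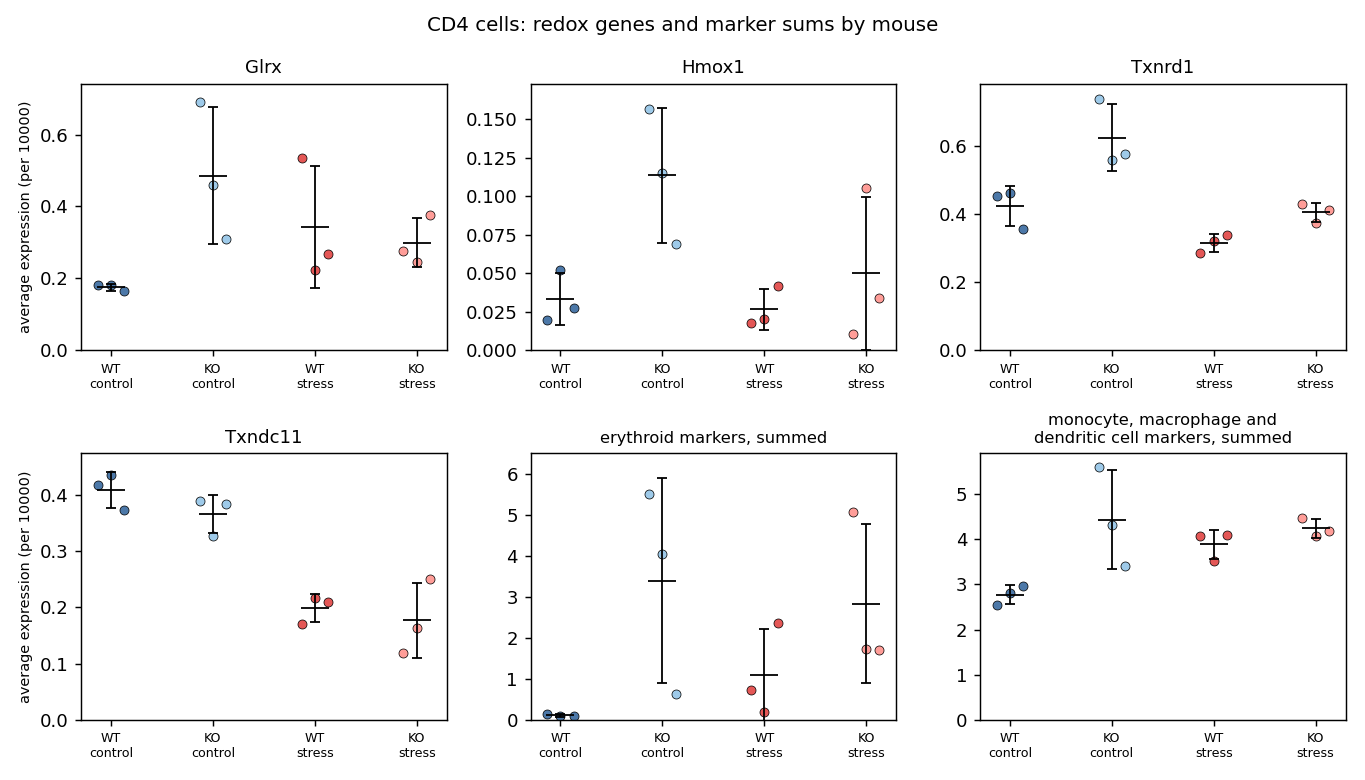
Average expression in CD4 cells (y axes, per 10000) of Glrx, Hmox1, Txnrd1 and Txndc11 and of 2 summed marker lists, by group (x axis; KO marks mice labelled as knockout). Points are single mice, and bars show the mean and SD of 3; in Glrx, Hmox1 and Txnrd1 and in both marker sums all labelled-knockout controls lie above all wild-type controls.

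In CD8a cells without stress only the 2 ferritin genes were listed, and 0 were called by limma (1 at an unadjusted p under 0.05), where 3.96% of 303 genes were higher and 4.29% lower. Fth1 was higher in every labelled knockout (0.15 ± 0.06, adjusted p = 0.075), and Ftl1 differed by 0.06 ± 0.05 (adjusted p = 0.30). Centring each mouse on its median turned these into -0.05 and -0.14. After stress the authors listed 0 of the redox genes as differing between genotypes, among 87 genes for CD4 and 99 for CD8a cells. When the change with stress was compared between genotypes (the interaction), 0 of 37 redox genes were called in CD4 cells and 0 of 34 in CD8a cells, where 0% of 2999 and of 2851 genes were called. At an unadjusted p under 0.05 there were 2 in CD4 cells, Glrx and Prdx5 (-0.31 ± 0.12, adjusted p = 0.45), and 0 in CD8a cells. The median interaction over the redox genes was -0.11 in CD4 cells (-0.05 over all genes). It was negative in 29 and positive in 8 of 37, where 42% of all genes were positive. In CD8a cells the median was -0.06 (0.01 over all), with 19 negative and 15 positive of 34, where 52.8% of all genes were positive. The larger number of calls in wild-type than in labelled-knockout CD4 cells is therefore not shown to be a difference between the genotypes. For the 5 shared genes the interaction ranged from -0.24 ± 0.16 (Selenok) to 0.05 ± 0.18 (Gpx4) in CD4 cells, and differences of about the size of these errors were not detectable with 3 mice a group.

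The totals over the redox genes followed the same groups. In CD4 cells the 37 genes summed to 44.1, 42.9 and 43.4 in wild-type controls, 54, 46.4 and 45.8 in labelled-knockout controls, 55.3, 51.2 and 56 in stressed wild-type mice and 57.5, 54.3 and 54 in stressed labelled knockouts. The first labelled-knockout control reached the level of the stressed mice, and the other 2 were below all of these. In CD8a cells the 34 genes summed to 38.3, 36.3 and 36 and 42.4, 38 and 37.5 without stress and to 45.2, 43.2 and 44.6 and 49.3, 45.6 and 43.4 after it. Every stressed mouse was above every unstressed one there. The sums over all listed genes also lay higher in every stressed mouse. They were 7367 to 7562 without stress against 8120 to 8225 in CD4 cells, and 7419 to 7615 against 8102 to 8270 in CD8a cells. The separation by stress is thus not particular to the redox genes.

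The same mice gave both cell types, so CD8a and CD4 cells were compared within mice. Of the 30 redox genes listed for both, 19 were lower and 3 higher in CD8a cells, where 35.3% of 2166 genes were lower and 17.4% higher (limma on within-mouse differences, 12 mice). The median difference, CD8a minus CD4, was -0.15 for the redox genes and -0.06 over all genes. Centring each mouse on its median turned the split of all genes from 377 higher and 764 lower into 549 and 479, with medians of 0.01 over all genes and -0.09 for the redox genes. On that scale 14 redox genes were lower and 3 higher, and the calls of Gpx4, Sod2, Txndc9, Txnl1 and Ftl1-ps1 were lost. Markers of other cells differed between the cell types too, with 5 of 7 tested B cell and class II genes and 3 of 4 macrophage markers lower in CD8a cells and all 3 natural killer cell markers higher, and their part in the redox results was not tested. The difference was -0.46 ± 0.02 for Fth1 (adjusted p = 2.1e-13), with Prdx2 at -0.42 ± 0.04 (adjusted p = 3.1e-08), Selenok -0.35 ± 0.04 (adjusted p = 8.4e-08), Selenow -0.27 ± 0.02 (adjusted p = 1e-08) and Ftl1 -0.26 ± 0.02 (adjusted p = 5.4e-09). All 12 mice had less of each of these 5 transcripts in CD8a cells. Gpx1 differed by -0.31 ± 0.04 (adjusted p = 5e-06), in all but 1 mouse. Gpx4 differed less, by -0.13 ± 0.05 (adjusted p = 0.017), with 3 of 12 mice the other way.

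The exceptions were Selenoh (0.16 ± 0.05, adjusted p = 0.0047), higher in CD8a cells in 11 of 12 mice, the mitochondrial thioredoxin Txn2 (0.13 ± 0.04, adjusted p = 0.0092; 8 of 12) and Mgst2, a microsomal glutathione transferase (0.13 ± 0.05, adjusted p = 0.028; 10 of 12). Prdx6, Txndc17, Glrx5, Park7, Glrx3, Glrx2, Txnl4a and Gpx4-ps2 were not called. Of the other redox genes from the wider list 10 of 20 were lower in CD8a cells and 1 higher, where 35.3% and 17.4% of all genes were. The lowest adjusted p among them was that of Ccs, the copper chaperone of superoxide dismutase (-0.69 ± 0.05, adjusted p = 6.4e-10).

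**Figure D4:**
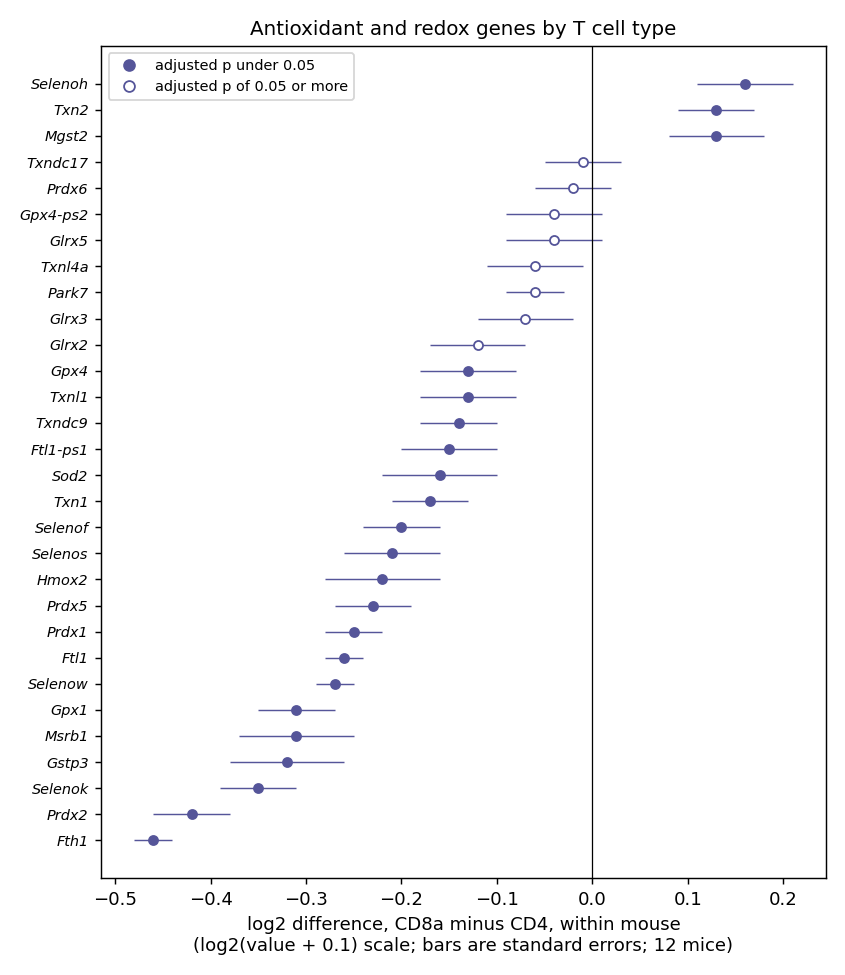
Difference in log2(value + 0.1) between CD8a and CD4 cells of the same mouse (x axis; negative is lower in CD8a cells) for the 30 redox genes listed in both, ordered by size; bars are standard errors over 12 mice. Filled points have an adjusted p under 0.05; 19 of them lie left of 0 and Selenoh, Txn2 and Mgst2 lie right.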

How the data were processed

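Spleen cells of 12 mice were sequenced with the 10x Genomics 3′ v2 chemistry, per the labels' protocols, and Cell Ranger 2.1.1 and mm10 are named in the submitters' processing notes. The deposited values are a normalized signal, the average expression per mouse over CD4 or CD8a cells, in 8 tables, 4 for each cell type. Their scale was read as per 10000 because the listed genes sum to less than 10000. They hold no counts of reads or cells, so depth is unknown. Values of a gene were identical in all tables of a cell type.

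From these, log2(value + 0.1) was tested with limma 3.58.1 in R 4.3.3 (mean-variance trend, two-sided, Benjamini-Hochberg over each comparison's table, threshold 0.05). Stress was compared within each genotype and genotype within each treatment, 3 mice against 3. The interaction was fitted with all 4 groups over all genes of a cell type's tables, and CD8a minus CD4 over the genes listed in both. The script was tested on simulated data.

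The redox genes, the other redox genes and the marker lists were chosen with earlier results of these data known. Values in every mouse are given for core genes of each family (Txn1, Fth1, Ftl1, Prdx1, Prdx2, Gpx1, Gpx4), for up to 6 further genes called in most stress comparisons (ties by adjusted p), for any called against the common direction and for any called between genotypes. Hmox1 and Txnrd1 were added after their values were seen. Other redox genes are named where called, up to 4 for each subgroup. Alternatives were other pseudocounts, filters, scalings and fits, each gene listed for the cell type, and leaving out each mouse. Gene positions and selenocysteine codons came from GENCODE M21 (41 of 41 genes placed) and promoters from RefSeq (33 of 41).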

Additional observations from a re-analysis of the deposited data

How the results depend on the processing

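Over 1728 recomputed values of 102 gene and comparison pairs, 0 of the 75 called changes reversed, which a called change could hardly do. When a mouse was left out, the call was lost in 86 values and kept in 496. In the other settings it was lost in 26 and kept in 672. Ftl1, Selenow and Gpx4 kept their calls in all 4 stress comparisons under every alternative run. The number of redox genes higher after stress ranged from 16 to 22 (wild-type CD4), 4 to 11 (labelled-knockout CD4), 10 to 14 (wild-type CD8a) and 4 to 9 (labelled-knockout CD8a) when each mouse was left out in turn. Over all genes tested the number higher then ranged from 561 to 725, 243 to 429, 461 to 501 and 254 to 360 in the same order. With the rest of 10000 scaled the number of redox genes higher was 20, 22 and 20 in the last 3. Beside these, 650 of 1770, 942 of 1978 and 640 of 1889 genes were higher. Centring gave 25 in wild-type CD8a cells, beside 1142 of 2108 genes. The number lower in wild-type CD4 cells was 0 without the lowest 25% of genes, which removed Txndc11, and 2 with every listed gene tested, which also gave 2 in labelled knockouts. The cause was not tested for the other changes.

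For genotype without stress in CD4 cells the number higher was 1, against 2 with a pseudocount of 0.01, 4 with all groups in 1 fit, and 0 with a pseudocount of 1, without the lowest 25% of genes, with every listed gene, or under either removal of ribosomal and mitochondrial genes. Leaving out mice gave 0 to 4, and centring gave 1 lower. Over all 496 genes 75 were higher, against 100 with the pseudocount of 0.01 and 167 with all groups in 1 fit. Leaving out mice gave 1 to 204 of all genes higher, and centring gave 25 higher and 109 lower. Reversed values, none of them called, were Fth1 and Ftl1 between genotypes on centring (-0.06 and -0.16 in CD4, -0.05 and -0.14 in CD8a cells), Park7 between cell types on centring (0.01), and Gpx1 in labelled-knockout CD8a cells without the first stressed mouse (-0.13; 0.18 at most when leaving out others).

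Mouse numbers did not pair the mice: same-numbered deviations correlated between -0.24 and 0.24, over 0.1 in 3 of 24 pairs. The replicate block gave 6 redox genes higher between genotypes in CD4 cells, beside 174 of all 496 genes, against 75 without the block. After stress it gave 21, 6, 10 and 10 redox genes higher, beside 671, 409, 479 and 395 of all genes. Without the block of mouse, 1 redox gene was higher in CD8a than in CD4 cells, beside 311 of all 2166 genes. Leaving out mice gave 2 to 3 redox genes higher and 17 to 20 lower, beside 340 to 378 and 697 to 763 of all genes. Groups of 3 mice and unknown depth limit what could be detected, and low-expressed genes such as Hmox1 most.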
